A study of Homo sapiens with 4 samples.

Results

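Human chromosome 19 carries long arrays of genes for C2H2 zinc finger proteins, and their RNA levels were followed here in chromosomal order across 4 arrays of prostate cancer cells. The members are the genes whose symbol is ZNF followed by a number and at most 1 letter, and which the gene table places on chromosome 19. Of 14006 genes with a named probe, 224 met this rule. The gene table lists 263 such symbols on the chromosome; the other 39 are not analysed here. The arrays hold total RNA of 4 cultures, 1 array each, so no difference below has a replicate check and no p-value is given. PC3-L is a PC3 culture labelled low for the laminin-binding O-glycan and highly motile and invasive, and PC3-H is its partner, labelled high for the glycan and weakly motile; both are androgen-independent and were separated with the antibody IIH6C4 from PC3, a line of bone metastasis origin. LNCaP-AI is labelled low for the glycan, highly motile and androgen-independent, and was made from LNCaP in medium with charcoal-stripped serum; its description adds growth in perineural conditioned medium. LNCaP is labelled high for the glycan, weakly motile and androgen-dependent, from a lymph node metastasis. The growth protocol given for all 4 was RPMI1640 with fetal serum. The description fields swap the glycan level of the PC3 cultures and call LNCaP moderate for it and androgen-independent, against the other labels; titles and source names were followed.

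Most zinc finger genes of this chromosome encode proteins with a KRAB domain, which recruits the scaffold TRIM28 and through it histone methyltransferases and heterochromatin proteins, while the fingers read DNA, often within transposable elements. The genes arose by tandem duplication, so neighbours are close relatives and stand in clusters. In several cancers some of these promoters are methylated over long stretches, with low RNA from many neighbours at a time, which is the question put to the order of the genes here.

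The promoters of 5 members that the results turn on are shown so that their CG pairs, the sites at which DNA methylation acts in mammals, can be seen; methylation itself was not measured. Each line gives the 250 bases before the most upstream start listed by RefSeq (build GRCh38.p14), 5′ to 3′ on the gene's strand, with every CG in capitals. ZNF93 (chr19:19900696-19900945, plus strand) was low on the PC3-H array alone, and ZNF844 (chr19:12064481-12064730, plus strand) was low on PC3-L and also on the array labelled LNCaP-AI. ZNF429 (chr19:21505352-21505601, plus strand), ZNF100 (chr19:21767580-21767829, minus strand) and ZNF254 (chr19:24086937-24087186, plus strand) were high on the LNCaP array alone. The windows hold 8 CG pairs for ZNF93, 13 for ZNF844, 5 for ZNF429, 8 for ZNF100 and 7 for ZNF254. Other members high on LNCaP alone are not shown: ZNF554 held 26 CG pairs, ZNF460 12 and ZNF91 7. No sequence was listed for ZNF253 and ZNF676.
ZNF93: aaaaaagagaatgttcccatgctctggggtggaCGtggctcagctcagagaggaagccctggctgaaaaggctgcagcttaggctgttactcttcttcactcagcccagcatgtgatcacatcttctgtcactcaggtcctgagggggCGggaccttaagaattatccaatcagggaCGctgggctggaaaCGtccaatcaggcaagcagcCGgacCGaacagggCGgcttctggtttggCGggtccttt
ZNF844: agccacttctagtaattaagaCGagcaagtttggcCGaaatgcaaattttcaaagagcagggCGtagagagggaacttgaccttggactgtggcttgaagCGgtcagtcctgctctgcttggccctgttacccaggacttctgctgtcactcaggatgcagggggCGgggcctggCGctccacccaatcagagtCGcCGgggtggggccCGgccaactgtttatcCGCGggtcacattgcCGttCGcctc
ZNF429: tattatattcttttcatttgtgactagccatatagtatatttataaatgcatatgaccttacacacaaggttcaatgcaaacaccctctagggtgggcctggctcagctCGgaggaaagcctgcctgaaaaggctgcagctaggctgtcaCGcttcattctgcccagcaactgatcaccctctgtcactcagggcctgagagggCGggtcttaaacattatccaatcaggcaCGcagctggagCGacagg
ZNF100: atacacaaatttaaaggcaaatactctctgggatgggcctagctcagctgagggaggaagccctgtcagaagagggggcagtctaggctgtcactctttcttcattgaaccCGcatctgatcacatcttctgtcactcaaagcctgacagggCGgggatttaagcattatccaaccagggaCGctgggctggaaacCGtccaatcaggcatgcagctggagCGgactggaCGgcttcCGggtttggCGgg
ZNF254: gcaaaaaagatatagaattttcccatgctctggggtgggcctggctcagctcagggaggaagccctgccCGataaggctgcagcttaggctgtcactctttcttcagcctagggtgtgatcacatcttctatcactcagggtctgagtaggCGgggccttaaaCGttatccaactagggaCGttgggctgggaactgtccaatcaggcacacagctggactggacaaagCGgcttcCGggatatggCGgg

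The array labelled LNCaP-AI did not carry the markers of its stated line. KLK3, which encodes prostate-specific antigen, measured 61.2 in intensity on it, against 1781 on LNCaP, and was 63.4 on PC3-L and 59.0 on PC3-H. The receptor kinase gene AXL was 1015 on it, against 47.4 on LNCaP, and was 900 on PC3-L and 609 on PC3-H. The 4 measured LNCaP markers summed to 212 on it, against 3613 on LNCaP, and the 7 measured PC3 markers to 3638, against 306. Of those 7, 6 were past 2-fold higher on it than on LNCaP; the exception was LCN2, at 46.0 against 64.5. CXCL8 set it apart from PC3-L, at 46.9 against 497. Over the 224 members it stood closest to PC3-L as well (Pearson r = 0.911 across members on the log2 scale), then to PC3-H (r = 0.868), and farthest from LNCaP (r = 0.795); these are descriptions across genes that share arrays and sequence. Markers of other cells were few: 2 of 5 fibroblast markers were measured, summing to between 67.3 and 76.1 on the 4 arrays, and 1 of 3 leukocyte markers, CD68, at 102 to 630. The part of these markers in the members' values was not tested. The array in question is named by its label below, and the silent counts are also given with it left out.

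The members' median intensity was 54.6 on PC3-L, 46.3 on PC3-H, 48.8 on the array labelled LNCaP-AI and 61.0 on LNCaP, where the medians over all probes were 39.8, 41.2, 40.9 and 40.8. Of the 224, 112 lay at or above the median of all probes on all 4 arrays and 35 lay under it on all 4. The median range of a member over the arrays was 1.48-fold, 42 spanned 2-fold or more and 3 spanned 4-fold or more, ZNF100, ZNF429 and ZNF844. Neither these ranges nor the counts against the median were computed over all genes, so no trait of the members is read from them. Least variable were ZNF461, ZNF835, ZNF547, ZNF540 and ZNF491, with ranges of 0.09 to 0.12 on the log2 scale. The members with the highest mean intensity, which depends on the probes as well as the RNA, were ZNF121, ZNF358, ZNF460, ZNF146 and ZNF841. A level in a bulk culture cannot tell fewer cells with a transcript from less of it per cell.

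**Figure D1:**
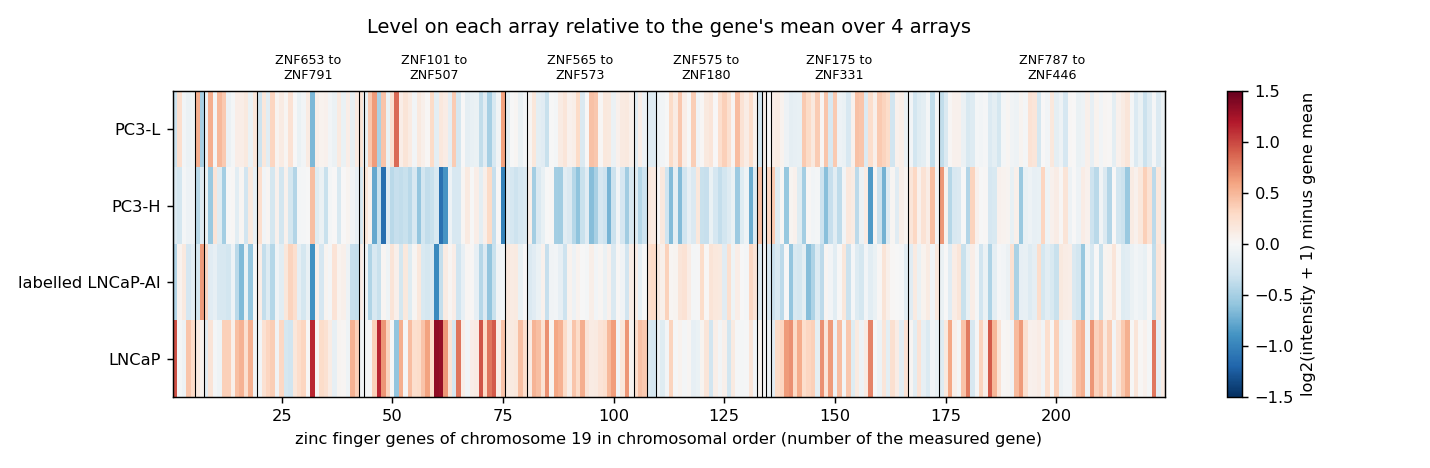
Level of each of the 224 zinc finger genes on each array, in chromosomal order from left to right. Colour gives log2(intensity + 1) minus the gene's mean over the 4 arrays, and vertical lines separate clusters; the 6 clusters with 20 or more measured genes carry their first and last gene. No run of 3 neighbours met the limit for silence on any array.

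A member was counted as silent on an array when its intensity there was at least 2-fold below the lowest of the other 3 arrays and under the median of all probes of that array. No stretch of 3 or more neighbouring members, and no pair of neighbours, was silent on the same array. A single member met the limit, ZNF93 on PC3-H, 1 of 224 (0.446%), where 0.15% of all 14006 genes met it. No member was silent on PC3-L alone (0.0214% of all genes), on the array labelled LNCaP-AI alone (0.0%) or on LNCaP alone (0.564%). The level of the arrays limits what could be seen. The lowest value of each array, 17.6 to 18.0, was taken as the floor for every gene. For PC3-H at most 165 members could then be called, for PC3-L 144, for LNCaP 141 and for the array labelled LNCaP-AI 138. For the others a 2-fold lower value was not detectable. These counts are upper bounds, since a gene's own probe may not reach the lowest value of its array. KLK3, for example, did not fall below 59.0 on any array. The floor of each probe was not measured, so fewer members may have been open to a call.

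ZNF93, a KRAB zinc finger gene whose protein binds and represses LINE-1 elements, had an intensity of 22.1 on PC3-H, against 67.3 on PC3-L, 50.7 on the array with the LNCaP-AI label and 79.4 on LNCaP. PC3-H thus lay 2.24-fold below the lowest of the others, near the floor of that array (17.7). Its measured neighbours did not meet the limit, though PC3-H was also the lowest array for ZNF506, ZNF682 and ZNF90. ZNF506 and ZNF253 lie before it. ZNF506 was 23.6 on PC3-H, against 64.2 on PC3-L, 34.3 on the array with the LNCaP-AI label and 52.5 on LNCaP, a gap of 1.44-fold. ZNF253 was 34.7 on PC3-H, against 31.1 on PC3-L, 34.6 on the one labelled LNCaP-AI and 98.3 on LNCaP. ZNF682 and ZNF90 lie after it. ZNF682 was 38.8 on PC3-H, against 40.8, 41.9 and 55.3, and ZNF90 was 36.5, against 57.1, 55.9 and 48.4. Without the array labelled LNCaP-AI, 4 members (1.79%) were silent on PC3-H, namely ZNF506, ZNF93, ZNF100 and ZNF320, where 0.271% of all genes were. ZNF844 (0.446%) was silent on PC3-L, where 0.421% of all genes were, and no member on LNCaP, where 0.643% were; there was still no stretch.

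With a limit of 1.5-fold, 11 members (4.91%) were silent on PC3-H, where 0.557% of all genes were. ZNF429 was silent on the array labelled LNCaP-AI (0.446% of members, 0.0357% of all genes), and no member on PC3-L (0.0785% of all genes) or LNCaP (1.16%). The 11 were ZNF93, ZNF714 and ZNF100, then ZNF568, ZNF585B and ZNF570, then ZNF283, ZNF45 and ZNF229, and last ZNF320 and ZNF347. They lie in 4 clusters and none adjoin in the order of the measured members. ZNF283 was 20.3 on PC3-H, against 39.7 on PC3-L, 33.2 on the array with the LNCaP-AI label and 41.3 on LNCaP. ZNF570 was 22.8 on PC3-H, against 42.0, 39.7 and 53.1 on the same arrays.

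At the 2-fold limit, members called on a single array were mostly those high on LNCaP. Silent and high calls are unlike, since the silent call also asks for a level under the median and is limited by the floor. Of the 224 members 8 (3.57%) were at least 2-fold above the highest of the other 3 arrays on LNCaP, as were 1.59% of all genes, 1.26% of the 239 zinc finger genes on other chromosomes and 1.70% of the 822 other genes of chromosome 19. None was high in this way on PC3-H (0.992% of all genes), PC3-L (0.65%) or the array labelled LNCaP-AI (0.307%). The 8 were ZNF554, ZNF253, ZNF429, ZNF100, ZNF676, ZNF91, ZNF254 and ZNF460. Of them 6 belong to the cluster that runs from ZNF101 to ZNF507, which spans the centromere, and ZNF429 and ZNF100 are neighbours.

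ZNF100 had an intensity of 194 on LNCaP, against 60.5 on the array labelled LNCaP-AI, 86.9 on PC3-L and 35.3 on PC3-H, the widest range of any member. ZNF429 was 102 on LNCaP, against 20.1, 35.8 and 33.7 on the same 3 arrays. ZNF253 was 98.3 on LNCaP, against 34.6, 31.1 and 34.7. These 3 are KRAB zinc finger genes of the cluster, and LNCaP stands clear of the other arrays in each. ZNF91, whose protein represses SVA retrotransposons, was 76.2 on LNCaP, against 28.7, 30.1 and 35.2. ZNF254 was 187 on LNCaP, against 78.3, 83.1 and 77.7. ZNF676 was 40.8 on LNCaP, level with the median of all probes, against 18.6, 18.95 and 19.4, which lie near the floor. Outside the cluster, ZNF460 was 445 on LNCaP, against 170.0, 203 and 197, and ZNF554 was 62.5, against 23.1, 25.4 and 27.4. The high members did not form a block: between ZNF100 and ZNF676 stand ZNF257, ZNF43 and ZNF208. ZNF43 was 149.9 on LNCaP, against 104 on the array labelled LNCaP-AI, 103 on PC3-L and 51.3 on PC3-H. ZNF208 was 25.4 on LNCaP, against 22.6, 20.04 and 20.9. Probe sequences were not used here, and close relatives in this cluster may share hybridisation.

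**Figure D2:**
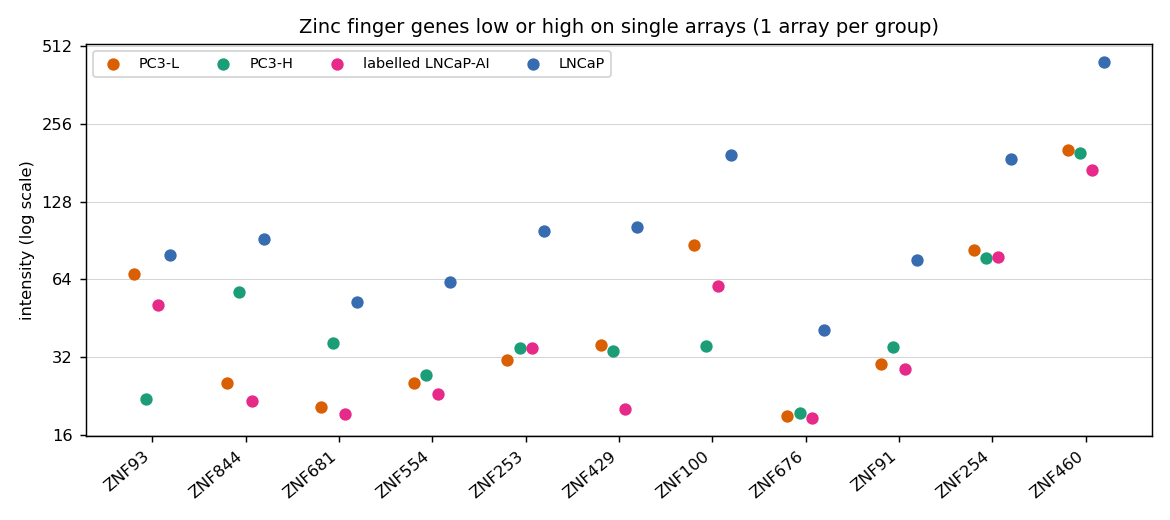
Intensity on a log scale of 11 zinc finger genes, with 1 point per array. ZNF93 has its lowest point on PC3-H (22.1), ZNF844 and ZNF681 are low on PC3-L and on the one labelled LNCaP-AI, and the 8 genes from ZNF554 to ZNF460 are highest on LNCaP.

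Over all 224 members, whatever the size of the difference, PC3-H gave the lowest of the 4 values for 102 members (45.5%), against 33.5% of zinc finger genes on other chromosomes, 13.5% of the other genes of chromosome 19 and 25.3% of all genes. LNCaP gave the highest value for 118 members (52.7%), against 39.3%, 21.8% and 26.1% in the same sets. The other genes of the chromosome leaned the other way: PC3-L was lowest for 47.1% of them and PC3-H highest for 42.0%. The longest unbroken run with PC3-H lowest held 11 members, from ZNF345 to ZNF793, and the longest with LNCaP highest held 15, from ZNF181 to ZNF829. The first member of the PC3-H run, ZNF345, was 30.8 on PC3-H, against 37.6 on PC3-L, 37.4 on the array with the LNCaP-AI label and 38.4 on LNCaP.

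**Figure D3:**
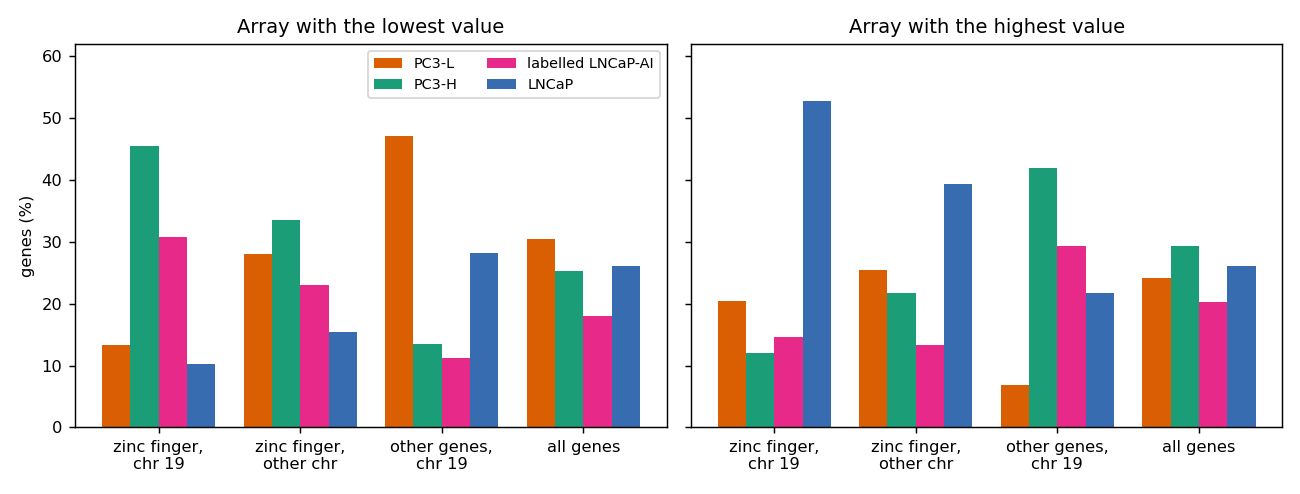
Share of genes, in percent, for which each array held the lowest (left) or the highest (right) of the 4 values, for the zinc finger genes of chromosome 19, those of other chromosomes, the other genes of chromosome 19 and all genes. PC3-H was lowest for 45.5% of the first set and 13.5% of the third, and LNCaP highest for 52.7% and 21.8%.

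The lean differed along the chromosome. A cluster was closed where over 10 protein-coding genes outside the symbol rule separated 2 zinc finger genes, which gave 17 clusters with measured members; 6 of them hold 20 or more and 184 of the 224. In the cluster from ZNF101 to ZNF507, 32 members, LNCaP was highest for 22 and PC3-H lowest for 16. In the cluster from ZNF565 to ZNF573, 24 members, LNCaP was highest for 19 and PC3-H lowest for 18. In the cluster from ZNF575 to ZNF180, 23 members, PC3-H was again lowest for 18, but LNCaP was highest for 3 and the array labelled LNCaP-AI for 10. In this last cluster ZNF229 was 56.5 on the array labelled LNCaP-AI and 51.7 on LNCaP, 54.7 on PC3-L and 26.7 on PC3-H, so that PC3-H alone was low. ZNF45 behaved likewise, at 49.4 and 45.3, and 58.1 and 27.4. In the cluster from ZNF653 to ZNF791, 23 members, PC3-H was lowest for 5 and the array labelled LNCaP-AI for 11. The cluster from ZNF175 to ZNF331, 31 members, had PC3-H lowest for 12 and the array labelled LNCaP-AI for 14, and that from ZNF787 to ZNF446, 51 members, 17 and 19. The small group of 7 from ZNF628 to ZNF580 had PC3-H highest for 4 and lowest for 0; ZNF581 was 194 on PC3-H, against 109 on PC3-L, 137 on the array with the LNCaP-AI label and 137 on LNCaP. No test of the difference between clusters was made.

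Between PC3-L and PC3-H, 13 of the 195 members that passed the filter were past 2-fold higher on PC3-L (6.67%) and 2 lower (1.03%), where 8.58% of all genes were higher and 3.76% lower. The filter asked that the higher of both values be at or above the 40th percentile of all probes on its array. The members' median log2 difference was 0.16 and 126 were above 0, beside −0.02 for all genes and −0.20 for the other genes of chromosome 19. For zinc finger genes on other chromosomes the median was 0.05, with 54.5% above 0, as were 64.6% of members. The share of members past 2-fold higher was below the background. Of the 13, 5 lie in the cluster from ZNF101 to ZNF507 and 3 each in those from ZNF575 to ZNF180 and from ZNF175 to ZNF331.

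ZNF507 measured 146 on PC3-L, against 47.8 on PC3-H (log2 difference 1.59), the largest among the members. ZNF93 followed at 67.3 against 22.1 (1.56), then ZNF506 at 64.2 against 23.6 (1.41). ZNF100 measured 86.9 on PC3-L, against 35.3 on PC3-H (1.27), and ZNF486 was 88.1 against 37.9 (1.20). ZNF320 (1.12), ZNF558 (1.10) and ZNF585B (1.08) came next, in log2 differences. The other 5 were ZNF45, ZNF347, ZNF480, ZNF229 and ZNF235, none above 1.06. Lower on PC3-L were ZNF844, at 25.5 against 57.2 (2.20-fold), and ZNF787, at 70.0 against 143 (2.03-fold).

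Between the array labelled LNCaP-AI and LNCaP, 0 of 202 members were past 2-fold higher and 17 lower (8.42%), where 5.45% of all genes were higher and 5.13% lower. The members' median log2 difference was −0.22, with 144 below 0, beside 0.00 for all genes and 0.07 for the other genes of chromosome 19. Zinc finger genes on other chromosomes leaned the same way, with a median of −0.11 and 67.0% below 0, against 71.3% of members. These directions depend on the array whose markers do not match its stated line. ZNF429 had the largest difference, with 20.1 on the array labelled LNCaP-AI against 102 on LNCaP (4.88-fold lower). ZNF844 was 21.6 against 92.1 (4.13-fold lower), ZNF100 60.5 against 194 (3.17-fold lower) and ZNF253 34.6 against 98.3 (2.79-fold lower). ZNF554, ZNF681, ZNF460 and ZNF91 were 2.60-fold to 2.64-fold lower. The other 9 include ZNF350, whose protein is a partner of BRCA1, at 41.1 against 100.0, and ZNF132, whose promoter is known to be methylated in prostate cancer, at 26.1 against 59.8.

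ZNF844 was past 2-fold lower in both pairs, and it was the single member to be so in the same direction: 25.5 on PC3-L against 57.2 on PC3-H, and 21.6 on the array labelled LNCaP-AI against 92.1 on LNCaP. ZNF681 had the same order, at 20.6 against 36.3 and 19.3 against 52.2, though the PC3 difference was within 2-fold. Its 2 low values lie near the floor. ZNF100 was past 2-fold in opposite directions. How many of all genes were past 2-fold in both pairs, in the same or opposite directions, was not counted.

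**Figure D4:**
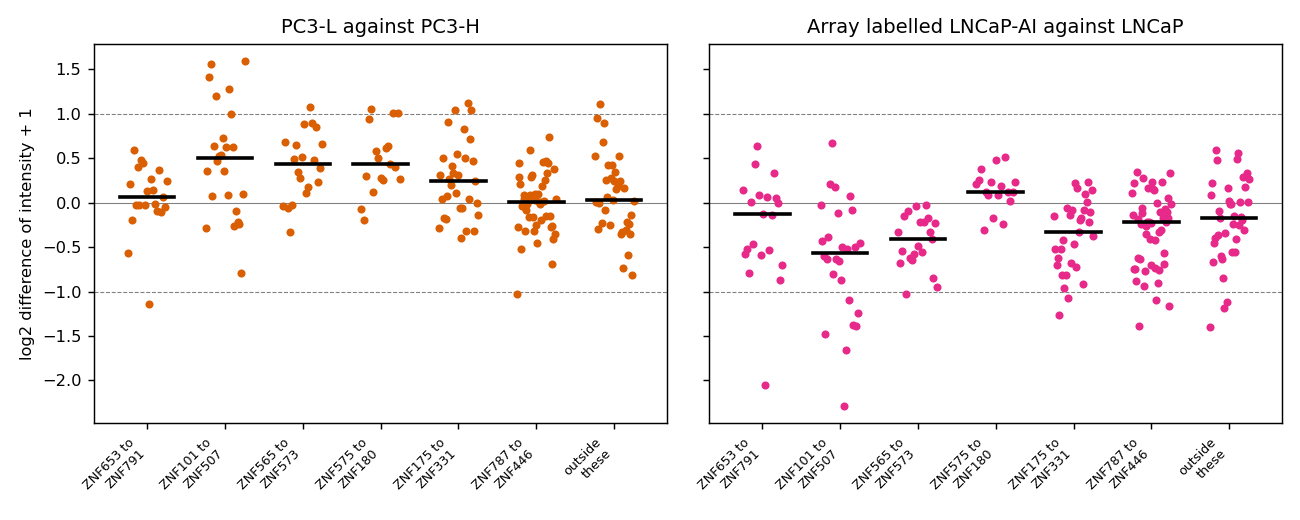
Log2 difference of intensity + 1 for members that passed the filter, by cluster, for PC3-L against PC3-H (left) and the array labelled LNCaP-AI against LNCaP (right). Each point is 1 gene, bars are medians and dashed lines mark 2-fold. The cluster from ZNF101 to ZNF507 has medians of 0.50 and −0.56, and that from ZNF575 to ZNF180 of 0.43 and 0.12.

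Among the 6 large clusters, the median PC3 difference was highest from ZNF101 to ZNF507 (0.50), from ZNF575 to ZNF180 (0.43) and from ZNF565 to ZNF573 (0.43), and lowest from ZNF787 to ZNF446 (0.01). In the LNCaP pair the cluster from ZNF101 to ZNF507 had the lowest median of the 6 (−0.56, with 22 of 26 members below 0), and 7 of the 17 lower members lie in it. The cluster from ZNF565 to ZNF573 had all 21 members that passed below 0 (median −0.41). The cluster from ZNF575 to ZNF180 had 14 of 17 above 0 (median 0.12). ZNF224, a KRAB repressor of that cluster, was 51.3 on the array labelled LNCaP-AI against 36.5 on LNCaP; its second probe gave 36.1 against 41.0, so its probes disagree in direction.

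Set against PC3-L, the array labelled LNCaP-AI differed past 2-fold at 1 of 194 members, higher at ZNF358, with 502 against 228, and lower at 0; 0.831% of all genes were higher and 1.95% lower. The members' median was −0.10. PC3-H against LNCaP, the arrays labelled high for the glycan, had 0 of 196 members past 2-fold higher (4.49% of all genes) and 24 lower (12.2%, where 5.46% of all genes were). The median was −0.35, beside 0.13 for the other genes of chromosome 19. Zinc finger genes on other chromosomes leaned as the members did, with a median of −0.15 and 64.8% below 0, against 77.0% of members. ZNF100 led at 35.3 on PC3-H against 194 on LNCaP, followed by ZNF93 at 22.1 against 79.4, ZNF320 at 39.3 against 121 and ZNF429 at 33.7 against 102. Of the 24, 10 lie in the cluster from ZNF101 to ZNF507. These comparisons share arrays with the ones above and are not independent of them.

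Genes that work with KRAB zinc finger proteins were read from lists. Of 29 co-repressors and heterochromatin partners 21 were measured; 3 were past 2-fold higher on PC3-L than on PC3-H and 0 lower, and for the array labelled LNCaP-AI against LNCaP 0 were higher and 1 lower. All-gene shares were 8.58% higher and 3.76% lower in the first pair and 5.45% and 5.13% in the second. The list's median log2 difference was 0.17 in the first pair and −0.20 in the second, beside −0.02 and 0.00 for all genes. CBX5, the heterochromatin protein HP1 alpha, measured 188 on PC3-L against 76.6 on PC3-H, the SUMO protease SENP1 308 against 140, and the NuRD remodeller CHD3 627 against 307. The deacetylase HDAC1 was 163 on the array labelled LNCaP-AI against 331 on LNCaP. TRIM28, the scaffold itself and also on chromosome 19, measured 472 on PC3-L against 904 on PC3-H (log2 difference −0.94), and 700 on the array labelled LNCaP-AI against 580 on LNCaP (0.27). ATF7IP, the partner of SETDB1, was just within 2-fold in the PC3 pair, at 142 against 71.0. The other measured ones, CBX1, CBX3, CHD4, MTA1, GATAD2A, GATAD2B, RBBP4, RBBP7, HDAC2, MBD2, MORC2, MORC3, MPHOSPH8, PPHLN1 and SUMO2, were within 2-fold in both pairs.

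Of 11 DNA methylation genes 9 were measured, with TET2 past 2-fold higher on PC3-L, at 123 against 57.6, and none past 2-fold in the LNCaP pair. The maintenance methyltransferase gene DNMT1 measured 370 on PC3-L against 558 on PC3-H, and 414 on the array labelled LNCaP-AI against 364 on LNCaP. UHRF1, which guides DNMT1, was 202 against 346 and 250 against 134 in the same order. Of 11 genes for H3K9 and H4K20 methylation all were measured and KMT5B was past 2-fold, in the PC3 pair, at 220 on PC3-L against 84.8 on PC3-H. The medians in the PC3 pair and the LNCaP pair were 0.23 and 0.03 for the DNA methylation genes and 0.25 and 0.12 for the histone methylation genes. ZNF274, a member whose protein recruits SETDB1 to the zinc finger genes themselves, measured 86.0 on PC3-L against 62.9 on PC3-H, and 69.4 on the array labelled LNCaP-AI against 104 on LNCaP. Of 16 measured chromosome 19 genes of other zinc finger symbols, among them antisense and readthrough transcripts, 12 passed the filter in the PC3 pair. Of these, 0 were past 2-fold higher and 1 lower, beside 8.58% and 3.76% of all genes. In the LNCaP pair 13 passed, with 0 higher and 2 lower, beside 5.45% and 5.13% of all genes. The list's medians were 0.19 and −0.19. ZNF667-AS1, an antisense transcript lower in both pairs, was picked out after its values were seen. It measured 30.2 on PC3-L against 126 on PC3-H, and 31.4 on the array labelled LNCaP-AI against 260.0 on LNCaP.

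Gene length moved with the PC3 difference. Across the 224 members, Spearman's rho between the log2 difference of PC3-L over PC3-H and gene length was 0.30, beside 0.23 across all genes with a length and 0.01 across the other genes of chromosome 19. The members share arrays and probe design, and no p-value is given. With a trend on length and on the spacing of neighbouring genes removed, the members' median in the PC3 pair was 0.20. Then 9 members (4.62%) were past 2-fold higher and 2 (1.03%) lower, where 5.47% and 4.59% of all genes were; the part of length in the lean was not tested. For the array labelled LNCaP-AI against LNCaP, rho with length was −0.20 across members and −0.01 across all genes.

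Promoter sequence was available for 197 members and 27305 listed genes in all. The listed genes are a wider set than the 14006 measured ones, and no comparison with measured genes alone was made. The 250 bases before the start held a median of 16 CG pairs in members and 10 in the listed genes. Of the members 83.8% had 10 or more, beside 51.7% of the listed genes. The cluster from ZNF101 to ZNF507 had the lowest median of the 6 large clusters, 8 CG pairs, where the other 5 had medians from 12 to 18.5. The ETS core CCGGAAG, searched on both strands, was in 29.9% of the member windows and 8.78% of those of the listed genes. The share was uneven: 53.8% from ZNF101 to ZNF507 and 52.2% from ZNF787 to ZNF446, but 31.6% from ZNF575 to ZNF180. It was 17.4% from ZNF565 to ZNF573, 11.5% from ZNF175 to ZNF331 and 0.0% from ZNF653 to ZNF791. Neighbours are close relatives, so their windows are not independent instances. ZNF100 and ZNF254 held it and ZNF93, ZNF429 and ZNF844 did not. The motif TCTCGCGA, also searched on both strands and bound by the factor that ZBTB33 encodes, was in 1.02% and 1.06% of the same windows. Both motifs hold a CG of their own, and neither contains the other. Across these 197 members, rho between the CG count and the log2 difference was −0.21 for PC3-L over PC3-H and 0.06 for the array labelled LNCaP-AI over LNCaP.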

How the data were processed

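The authors' deposited table holds intensity values of 4 Affymetrix whole-transcript arrays on a linear scale, as the values show (17.6 to 11188). Per the labels' protocols, total RNA was extracted with ISOGEN II and biotinylated with the WT Terminal Labeling Kit; summarisation and normalization are not given in the sources used here, and the design text names GeneSpring GX 12.6. Of 37934 probes 14952 had a gene symbol (14006 genes); the probe with the highest mean stood for its gene, and 4 members had over 1 probe. Chromosome and order came from RefSeq (GRCh38.p14), whose coordinates were used only for gene order, length and neighbour spacing.

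Differences are log2(intensity + 1), the first-named array minus the second, over genes with at least 1 of both values at or above the 40th percentile of all probes on its array. No test was run, since each group had 1 array, and array number limits the precision. Main counts of members stand beside the same over all genes. Functions were checked on simulated data. Members and lists were chosen with earlier results of these data known. Named are members silent or high on 1 array alone (at most 12 and 5 per array), the 8 largest differences in each direction of the pairs PC3-L against PC3-H and LNCaP-AI against LNCaP, the 5 highest means and 5 least ranges, and the partner lists; other genes named were chosen after their values were seen. Promoters were those of RefSeq, and strand was checked on 163 overlapping pairs. Analysis used Python 3.11.15, numpy 2.4.6 and pandas 2.3.3.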

Additional observations from a re-analysis of the deposited data

Results flagged for a closer look

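The members leaned in opposite directions in the 2 pairs of low against high glycan label: their median log2 difference was 0.16 for PC3-L against PC3-H and −0.22 for the array labelled LNCaP-AI against LNCaP. Of 191 members that passed the filter in both pairs, 93 (48.7%) were above 0 in the first and below 0 in the second, and 26 (13.6%) the reverse. Over all 10762 genes that passed in both, these shares were 23.2% and 25.4%, and over the 697 other genes of chromosome 19 they were 8.18% and 45.2%. Zinc finger genes on other chromosomes had medians of the same signs, 0.05 and −0.11, and these shares were not counted for them. With 1 array per group the difference between the pairs was not tested, and the second pair includes the array whose markers do not match its stated line.

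ZNF100 was past 2-fold in both pairs in opposite directions, with a log2 difference of 1.27 for PC3-L against PC3-H and −1.66 for the array labelled LNCaP-AI against LNCaP. This difference was not tested either, and the share of all genes past 2-fold in both pairs in opposite directions was not counted. The 2 low-label arrays were the closer pair, at 86.9 on PC3-L and 60.5 on the array labelled LNCaP-AI, while PC3-H was 35.3 and LNCaP 194.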

How the results depend on the processing

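The count of silent stretches was 0 under each of 9 alternatives, among them 1.5-fold and 3-fold limits, runs of 2, a gap of 1 member and no limit on the level. Only the 1.5-fold limit and leaving out the array labelled LNCaP-AI gave over 1 silent member on any array. Under the other alternatives no array had over 1, so a stretch could not arise there. Counts of silent members rested on few genes. On PC3-H the count was 11 at 1.5-fold, 0 at 3-fold, 0 with a pseudocount of 16 and 4 without the array labelled LNCaP-AI, an alternative chosen after seeing the data. That last alternative gave 1 on PC3-L, and 1.5-fold gave 1 on the array labelled LNCaP-AI. The 8 members high on LNCaP alone became 22 at 1.5-fold (9.82%, against 3.91% of all genes), 0 at 3-fold and 5 with a pseudocount of 16. That pseudocount, which shrinks dim genes by construction, also left 4 members past 2-fold in the PC3 pair (15 as reported), all higher (2.05%, against 6.37% of all genes). It left 10 lower in the LNCaP pair (4.95% against 3.8%; 17 as reported) and 10 lower for PC3-H against LNCaP (5.10% against 3.85%; 24 as reported). The median of the LNCaP pair was −0.37 with a 60th percentile filter; the cause was not tested. The largest differences, 10 members between the PC3 arrays and 8 in the LNCaP pair, kept their direction in 126 of 126 recomputations and fell within 2-fold in 9. Many of these recomputations could not have come out otherwise. A changed filter leaves a gene's own difference as it was, as does the mean over probes, since none of these genes has over 1 probe. A larger pseudocount cannot reverse a direction. Other named genes were not recomputed. Quantile normalization and the mean over probes moved no count past 2-fold, silent or high by over 1.5 times, nor did median centring for the pair counts; lowest and highest array, list and both-pair counts were not recomputed. Values near the floor limit folds of dim genes.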

Other observations

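Low values on 2 arrays together were looked for after seeing the data, with both at least 2-fold below the other 2 and under their medians. ZNF844 was the 1 member found, low on PC3-L and also on the array labelled LNCaP-AI (0.446% of members, 0.286% of all genes). No member was low on PC3-H and LNCaP together, as 0.186% of all genes were.

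Measured protein-coding genes inside the large clusters that do not match the symbol rule were few, too few to set against the members. For comparison, PC3-H was lowest for 25.3% of all genes and 13.5% of the other genes of chromosome 19. PC3-H was lowest for 0 of 2 from ZNF653 to ZNF791, 1 of 3 from ZNF101 to ZNF507, 3 of 3 from ZNF565 to ZNF573, 1 of 5 from ZNF575 to ZNF180, 1 of 6 from ZNF175 to ZNF331 and 4 of 16 from ZNF787 to ZNF446. The 3 from ZNF565 to ZNF573, ZFP14, ZFP82 and ZFP30, are zinc finger genes themselves, as are 8 of the 16. On PC3-L and PC3-H, ZFP14 was 23.2 against 22.2, ZFP82 68.5 against 41.2 and ZFP30 67.8 against 42.0.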
